A study of Mus musculus with 23 samples.

Results

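Matrix proteases, their inhibitors and the plasminogen activators were followed in RNA from pancreatic tumour cells grown flat on plastic or as organoids in a gel. The genes are those of a fixed list of 10 symbols looked up in the count table: the matrix metalloproteinases Mmp14, Mmp15, Mmp2 and Mmp7, the inhibitors Timp1, Timp2 and Timp3, the plasminogen activators Plat and Plau, and the urokinase receptor Plaur. Of the 10, 9 have a row among the 27207 genes of the table and all 9 passed the filter on low counts that left 11144 genes. Mmp7 was not analysed here. The study asked how such cells build branched structures in floating collagen, and this group of genes bears on the remodelling of the gel around them.

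The 23 libraries fall into 6 groups. KC cells are 1 primary tumour cell line from a mouse of the KC genotype, which carries Ptf1aCre/+, a Cre of the pancreas lineage. They were taken from 2D culture (6 libraries), from floating rat collagen I gels at day 7 (3 libraries) and at day 13 (5 libraries), and from growth factor-reduced Matrigel at day 13 (3 libraries), all in the first batch named by the labels. The second batch held KC cells in collagen at day 13 (3 libraries) and KPC cells in collagen at day 13 (3 libraries). KPC cells are 1 line from a mouse of the KPC genotype, which carries Pdx1Cre/+, so that genotype cannot be told apart from the line. Organoids were freed with collagenase before lysis and 2D cells were lysed directly, so that culture form and digestion cannot be told apart in any comparison with 2D. Nothing in the labels says that replicates came from separate animals, and p-values measure the spread between libraries of 1 line.

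Matrix metalloproteinases cut proteins outside the cell. Mmp14 and Mmp15 are anchored in the plasma membrane, Mmp14 cuts fibrillar collagen and also activates the secreted proenzyme of Mmp2, and Mmp7 is a small secreted protease of epithelia. The TIMP proteins bind the active site of metalloproteinases, and Timp2 also takes part in the activation of Mmp2 by Mmp14. Plat and Plau turn plasminogen into plasmin, a broad protease, and Plaur holds Plau at the cell surface.

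The libraries held 1221451 to 2471058 counts each (median 1845921), and 3 counts, the most that a count of 0 allows, correspond to 1.16 to 3.22 CPM. CPM here are counts scaled to a common library size with TMM factors. Each count is 1 captured RNA molecule at the 3′ end of a transcript. The 6 epithelial markers were over the floor in every group and summed to between 7016 and 13880 CPM, most of it from the keratins, whereas Epcam had a mean of only 5.87 CPM (12 to 16 counts) at day 7. The fibroblast markers summed to between 32.7 and 187 CPM, and 4 to 6 of the 8 exceeded 3 counts in some library of each group. Col1a2 had a mean of 61.1 CPM in 2D and 35.1 CPM in first-batch collagen at day 13, where Col3a1 had 21.2 CPM. Thy1 was at 0 in every library and Lum at no more than 2 counts. Of the macrophage markers Cd14 and Cd68 were present, whereas Lyz2 and Csf1r reached no more than 1 count in any library. The endothelial markers summed to no more than 2.0 CPM, and the 1 acinar marker of 3 with a row had 2.98 to 20.4 CPM. The first 3 of the 6 2D libraries stood apart from the other 3. They had totals of 1221451 to 1382736 against 1649327 to 2091391, TMM factors of 0.738 to 0.772 against 1.035 to 1.062, and a fibroblast marker sum of 131 to 187 against 61.4 to 78.1 CPM, and calls on 2D that change without either set are given below.

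Promoters are shown for the 4 genes with the day 7 changes described first below that the promoter table used here holds, and for Plaur, the receptor without such a change. The sequences are the 250 bases before the RefSeq start on GRCm38.p6, written 5′ to 3′ on the strand of the gene, with matches to the GC box (GGGCGG) and the AP-1 site (TGANTCA) in capitals on either strand. They lie at chr14:54431348-54431597 (plus strand, Mmp14), chr8:95352046-95352295 (plus, Mmp15), chrX:20869916-20870165 (plus, Timp1), chr11:118355412-118355661 (minus, Timp2) and chr7:24462233-24462482 (plus, Plaur).
Mmp14: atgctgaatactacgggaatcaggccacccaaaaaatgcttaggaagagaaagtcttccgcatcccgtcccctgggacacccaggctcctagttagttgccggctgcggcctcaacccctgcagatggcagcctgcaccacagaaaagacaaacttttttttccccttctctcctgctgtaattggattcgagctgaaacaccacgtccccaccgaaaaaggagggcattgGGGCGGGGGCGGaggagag
Mmp15: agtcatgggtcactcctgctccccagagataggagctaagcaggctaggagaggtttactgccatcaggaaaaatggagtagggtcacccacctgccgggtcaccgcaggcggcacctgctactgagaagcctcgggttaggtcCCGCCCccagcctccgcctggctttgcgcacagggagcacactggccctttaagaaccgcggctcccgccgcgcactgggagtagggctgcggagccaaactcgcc
Timp1: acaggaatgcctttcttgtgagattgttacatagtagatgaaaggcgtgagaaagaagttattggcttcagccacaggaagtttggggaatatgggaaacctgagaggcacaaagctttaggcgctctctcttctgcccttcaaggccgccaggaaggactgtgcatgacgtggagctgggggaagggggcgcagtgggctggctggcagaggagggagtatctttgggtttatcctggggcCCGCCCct
Timp2: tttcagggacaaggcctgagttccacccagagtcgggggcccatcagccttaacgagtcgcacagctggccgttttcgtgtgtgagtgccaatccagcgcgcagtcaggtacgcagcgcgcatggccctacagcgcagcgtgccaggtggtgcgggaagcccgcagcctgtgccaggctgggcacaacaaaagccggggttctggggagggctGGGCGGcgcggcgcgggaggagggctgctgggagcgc
Plaur: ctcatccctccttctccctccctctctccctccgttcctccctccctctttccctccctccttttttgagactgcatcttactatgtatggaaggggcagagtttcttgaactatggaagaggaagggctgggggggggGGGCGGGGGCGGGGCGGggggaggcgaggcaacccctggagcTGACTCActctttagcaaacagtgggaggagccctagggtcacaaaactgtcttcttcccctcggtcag
The table held promoters of 6 of the 9 genes, these and Timp3. All 6 had a GC box, which 32.7% of the 32851 promoters of the table and 59.1% of the 11042 promoters of tested genes also had. An AP-1 match stood in the Plaur window only, 69 bases before the start, against 6.75% of all promoters and 4.68% of those of tested genes. The TATA box (TATAAA) was in none of the 6 windows, in 12.4% of all and in 6.5% of those of tested genes. These matches describe letters and not binding. The RefSeq starts differ from the GENCODE starts of the gene positions given below. By the latter, the Timp2 window lies inside the gene, and the Mmp15 and Timp3 windows run past the start.

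The first comparison asked how transcripts of the matrix protease system differ between the extension phase of collagen organoids (day 7) and the phase of lumen formation (day 13) in KC cells. Plat, Timp1, Timp2 and Mmp14 were higher at day 7 and Mmp15 was lower, by between 1.62 and 4.44 times. A share of 55.1% of all tested genes was called here, 28.1% higher and 27.1% lower at day 7, so that 5 of 9 members lies near the background. The median log2 fold change of the 9 was 0.35, against 0.01 over all tested genes.

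Plat (chr8:22757727-22782844, plus strand), the tissue-type plasminogen activator, had 120, 120 and 157 CPM in the 3 day 7 libraries and 42.2, 41.2, 37.3, 32.7 and 39.4 CPM in the 5 of day 13. Every day 7 library lay above every day 13 library. The difference was 3.42-fold (log2 fold change 1.78 ± 0.14 SE, edgeR adjusted p = 2.15e-10).

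Mmp15 (chr8:95352268-95375080, plus strand), a membrane-bound metalloproteinase, showed the opposite order. Its day 7 libraries had 14.2, 14.3 and 14.1 CPM, and those of day 13 had 49.6, 45.6, 58.4, 80.6 and 83.0 CPM. The groups did not overlap, and day 7 lay close together while day 13 spread, with replicates 4 and 5 above replicates 1 to 3. Mmp15 was 4.44-fold lower at day 7 (log2 fold change -2.15 ± 0.21 SE, edgeR adjusted p = 9.55e-09).

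Both inhibitors called in this comparison were on the day 7 side. Timp1 (chrX:20870166-20874735, plus strand) had 183, 162 and 150 CPM at day 7 and 57.0, 69.1, 57.4, 91.8 and 56.7 CPM at day 13, without overlap. The difference was 2.48-fold (log2 fold change 1.31 ± 0.21 SE, edgeR adjusted p = 8.97e-06). Timp2 (chr11:118301069-118355740, minus strand) had 581, 547 and 633 CPM at day 7 and 323, 334, 346, 299 and 294 CPM at day 13, again without overlap. It was 1.84-fold higher (log2 fold change 0.88 ± 0.12 SE, edgeR adjusted p = 2.04e-06).

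Mmp14 (chr14:54431612-54445364, plus strand), the membrane-bound collagenase, spread most at day 7. Its libraries there had 199, 316 and 397 CPM, against 232, 172, 199, 154 and 183 CPM at day 13. The lowest day 7 library lay inside the range of day 13. Mmp14 was called at 1.62-fold higher (log2 fold change 0.70 ± 0.16 SE, edgeR adjusted p = 0.00103), and leaving out single libraries moved the log2 fold change between 0.46 and 0.91 with the call kept.

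Timp3 (chr10:86300372-86349506, plus strand), the inhibitor that binds to the extracellular matrix, had 39.2, 37.96 and 25.6 CPM at day 7 and 20.6 to 33.6 CPM at day 13, with overlap (log2 fold change 0.32 ± 0.21 SE, edgeR adjusted p = 0.225). It was called without day 7 replicate 3 (0.49), with all 8 KC collagen libraries of day 13, which span both batches (0.44), and with a block for replicate number (0.35). Plaur (chr7:24462484-24475968, plus strand) had 346 to 389 CPM at day 7 and 301 to 380 CPM at day 13 (log2 fold change 0.08 ± 0.11 SE, edgeR adjusted p = 0.582), and the 95% interval of the log2 fold change ran from -0.15 to 0.31.

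**Figure D1:**
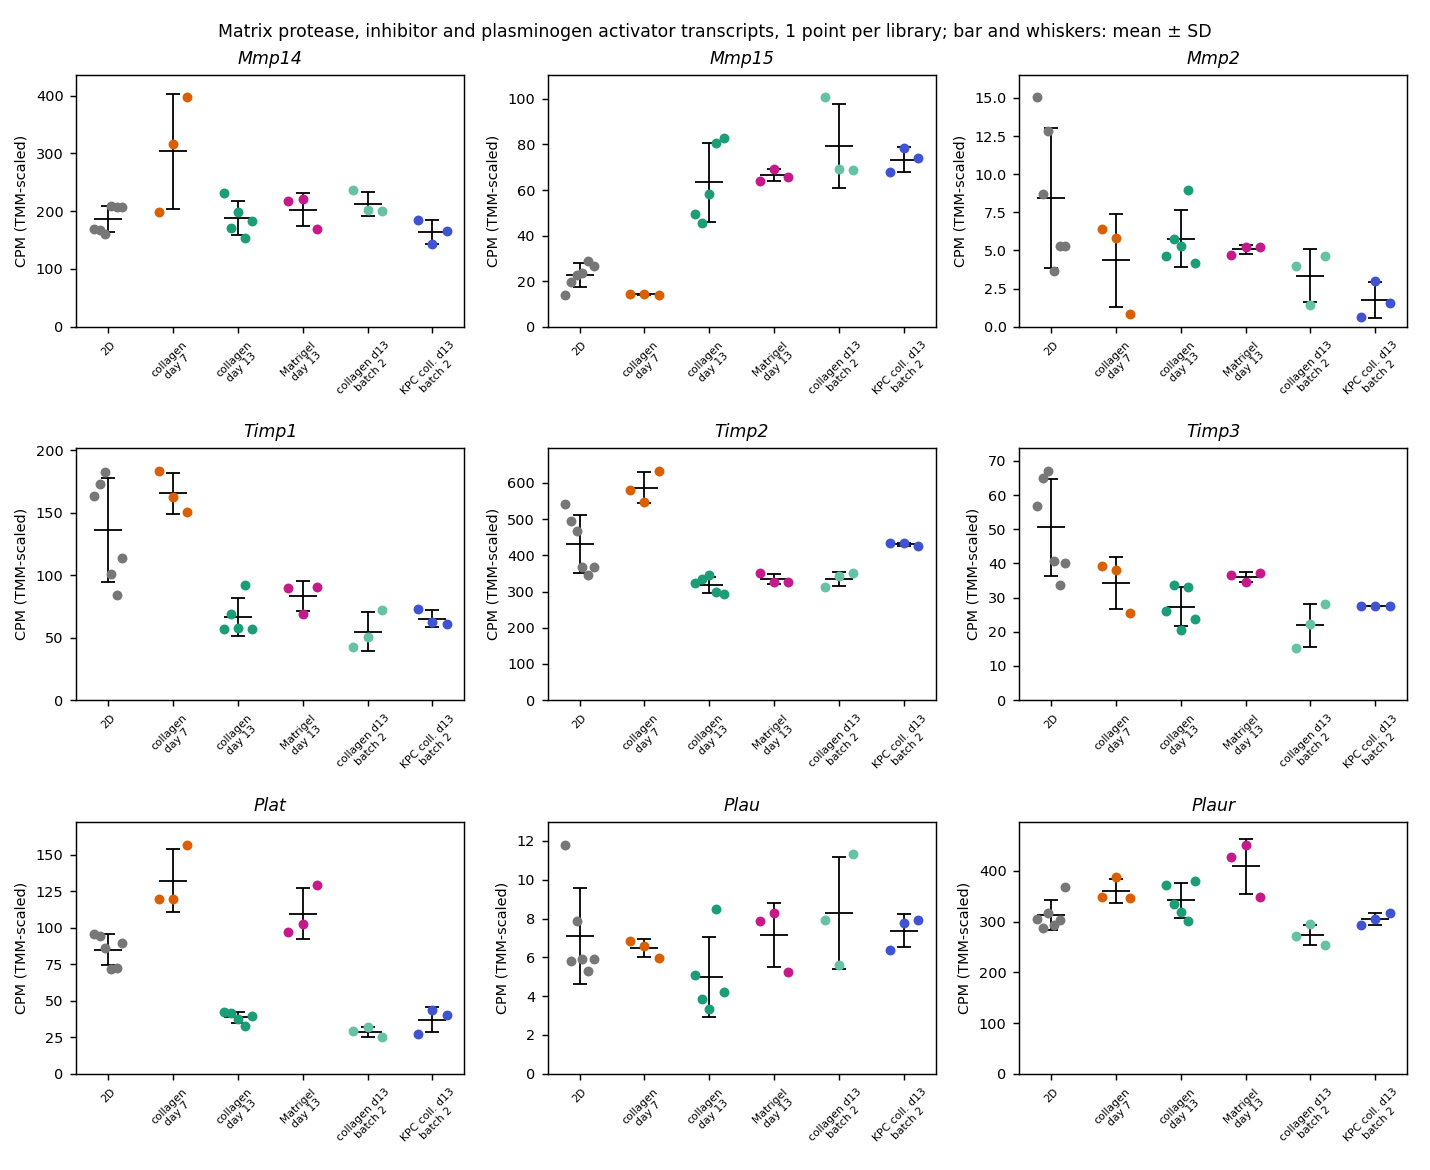
Level in TMM-scaled CPM (y axis, linear, from 0) of the 9 transcripts in each of the 23 libraries (points), by group (x axis), with the group mean and SD as bar and whiskers. Plat was high at day 7 and in Matrigel and low in the collagen groups of day 13, Mmp15 was low in 2D and at day 7, and Mmp2 and Plau stayed under 16 CPM throughout.

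Mmp2 and Plau were near the limit of detection in every group, and their values are descriptions of few molecules. Mmp2 (chr8:92827291-92853420, plus strand), the secreted gelatinase, had between 1 and 20 counts per library. In KPC organoids the 3 libraries held 1, 5 and 3 counts (0.639, 2.99 and 1.58 CPM), of which 1 library was above 3 counts. Its highest values, 15.0, 8.73 and 12.8 CPM, were those of 2D replicates 1 to 3, against 3.65, 5.28 and 5.30 CPM in replicates 4 to 6. Plau (chr14:20836660-20843385, plus strand), urokinase, had between 6 and 20 counts per library, and its group means ran from 5.0 to 8.28 CPM, each group overlapping the next in that order. A difference in Mmp2 was not called in any of the 7 comparisons as designed. When KPC was set against all 8 KC collagen libraries of day 13, Mmp2 was called lower in KPC (log2 fold change -1.40, edgeR adjusted p = 0.0858). Of these 8, 5 are from the first batch and all KPC libraries are from the second. Line and batch cannot be told apart there, and within the second batch Mmp2 was not called (-0.92, edgeR adjusted p = 0.48). Without 2D replicates 4 to 6 Mmp2 was called higher in 2D than at day 7 (log2 fold change 1.48) and day 13 (1.07), and lower in Matrigel than in 2D (-1.26). Plau was called higher at day 7 (0.64) and in 2D (0.69) than at day 13 without day 13 replicate 4, and higher in 2D than at day 13 without 2D replicates 4 to 6 (0.75).

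The second comparison set spheres in Matrigel against branched organoids in collagen, both KC cells at day 13. It shares its 5 collagen libraries with the comparison of day 7 and with that of 2D cells and day 13. Plat alone was called among the 9. It had 96.8, 102 and 129 CPM in Matrigel, above every collagen library (32.7 to 42.2 CPM). The difference was 2.83-fold (log2 fold change 1.5 ± 0.14 SE, edgeR adjusted p = 6.27e-08). The macrophage markers, 5 of 6 with a row, summed to 224 to 258 CPM in Matrigel and 80.6 to 119 CPM in collagen. Cd14 (log2 fold change 1.24) and Cd68 (1.02) were higher in Matrigel with Lyz2 at 0 in both groups. At day 7, where Plat was also higher than at day 13, the sum was 50.3 to 62.0 CPM, and the part of these markers in the difference was not tested. Of all tested genes 12.9% were called, 6.62% higher and 6.29% lower in Matrigel, so that 1 of 9 lies near the background. Mmp14 (170 to 221 CPM in Matrigel), Mmp15 (64.1 to 69.3 CPM) and Timp2 (326 to 351 CPM) overlapped collagen, and the 95% intervals of their log2 fold changes ran from -0.23 to 0.46, from -0.30 to 0.43 and from -0.19 to 0.33.

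Plaur had 427, 452 and 348 CPM in Matrigel and 373, 336, 318, 301 and 380 CPM in collagen, with overlap (log2 fold change 0.26 ± 0.11 SE, edgeR adjusted p = 0.161). It was called without collagen replicate 5 (0.32) and without Matrigel replicate 3 (0.36), and also with all 8 KC libraries (0.38), DESeq2 (0.27), a fit of the 2 groups alone (0.29) and a stricter minimum of 10 counts per library (0.31). The 8 KC libraries include the second batch, in which Plaur was lower than in the first (-0.32), while Matrigel is in the first batch only. Plau was called only without collagen replicate 4, at 0.82. Timp3 did not overlap between the groups (34.4 to 37.3 CPM in Matrigel, 20.6 to 33.6 CPM in collagen), yet was not called (log2 fold change 0.39 ± 0.21 SE, edgeR adjusted p = 0.295). It was called with all 8 KC libraries (0.52) and with a block for replicate number (0.46).

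**Figure D2:**
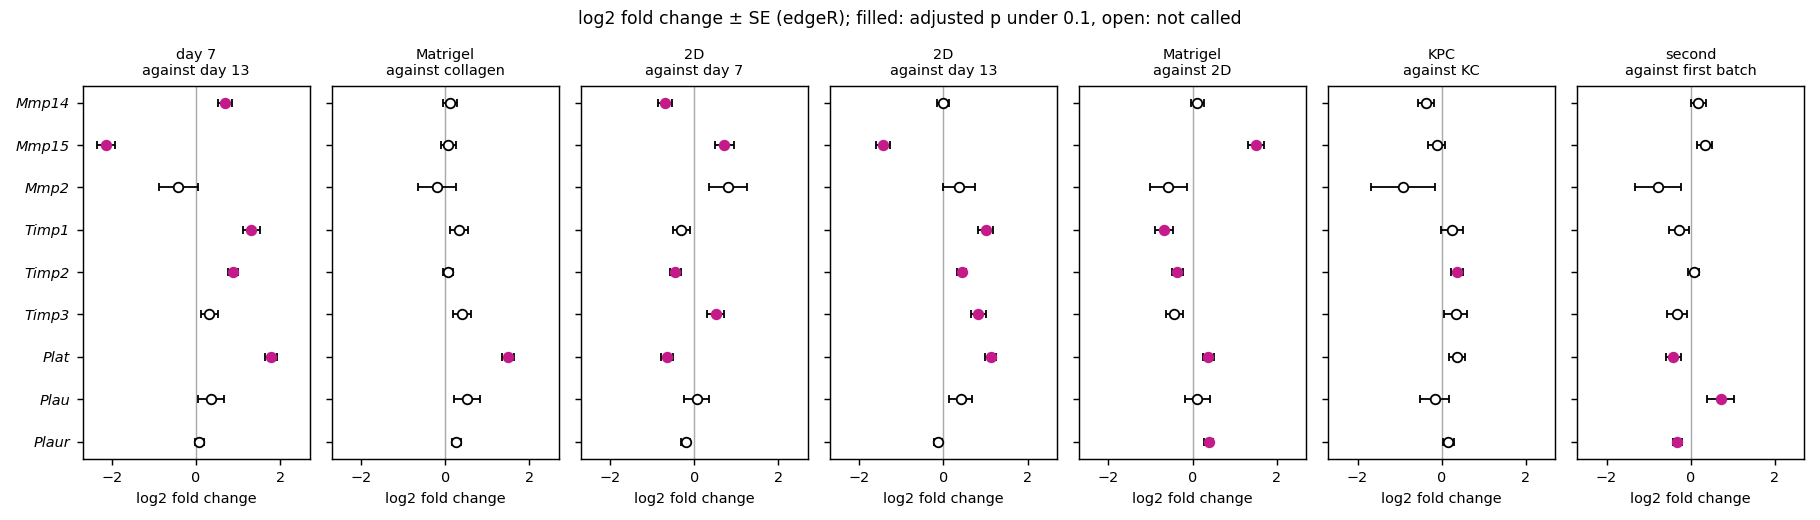
Log2 fold change of the first against the second group named above each panel (x axis) with its SE, for the 9 transcripts (y axis), filled where edgeR's adjusted p was under 0.1. The first panel holds 5 called genes and the second 1, Plat, and comparisons with a common group share libraries.

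Cells in 2D culture were compared with the organoids of the same batch. Against day 13 in collagen, Plat, Timp1, Timp3 and Timp2 were higher in 2D and Mmp15 was lower. The background was 49.6% of tested genes, 26.3% higher and 23.3% lower in 2D, near the 5 of 9 called. Mmp15 had a lowest, median and highest value of 13.96, 23.2 and 28.8 CPM in 2D, below every day 13 library (log2 fold change -1.44 ± 0.17 SE, edgeR adjusted p = 3.05e-07), and the log2 fold change was -1.30 without 2D replicates 1 to 3 and -1.73 without replicates 4 to 6. Plat ran from 71.7 over a median of 87.6 to 95.6 CPM in 2D, above every day 13 library (log2 fold change 1.12 ± 0.13 SE, edgeR adjusted p = 2.52e-07), at 0.97 and 1.27 without these sets.

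The inhibitors in 2D followed the split between the libraries. Timp1 had 163, 173 and 182 CPM in 2D replicates 1 to 3 and 101, 84.0 and 114 CPM in replicates 4 to 6. The lowest of these lay inside the range of day 13, and the log2 fold change over all 6 was 1.01 ± 0.18 SE (edgeR adjusted p = 0.000106). It was called at 0.54 without replicates 1 to 3 and at 1.39 without replicates 4 to 6. Timp2 had 542, 495 and 467 CPM in the first 3 and 367, 347 and 369 CPM in the last 3, all above day 13, at a log2 fold change of 0.43 ± 0.11 SE (edgeR adjusted p = 0.00217). Without replicates 1 to 3 the call on Timp2 was lost (0.15, edgeR adjusted p = 0.166), as it was with library size alone (0.17). Timp3 had 56.9, 65.0 and 67.0 CPM and then 40.6, 33.6 and 40.0 CPM, at a log2 fold change of 0.83 ± 0.18 SE (edgeR adjusted p = 0.000721), and was called at 0.44 and 1.22 without these sets. Mmp14 went the other way, with 170, 167 and 161 CPM and then 208, 206 and 207 CPM, and its log2 fold change against day 13 was 0.00 ± 0.14 SE (edgeR adjusted p = 0.993). The part of the fibroblast-marker RNA, which is also higher in replicates 1 to 3, in these differences was not tested, and in bulk RNA fewer cells of a type and less RNA per cell cannot be told apart.

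**Figure D3:**
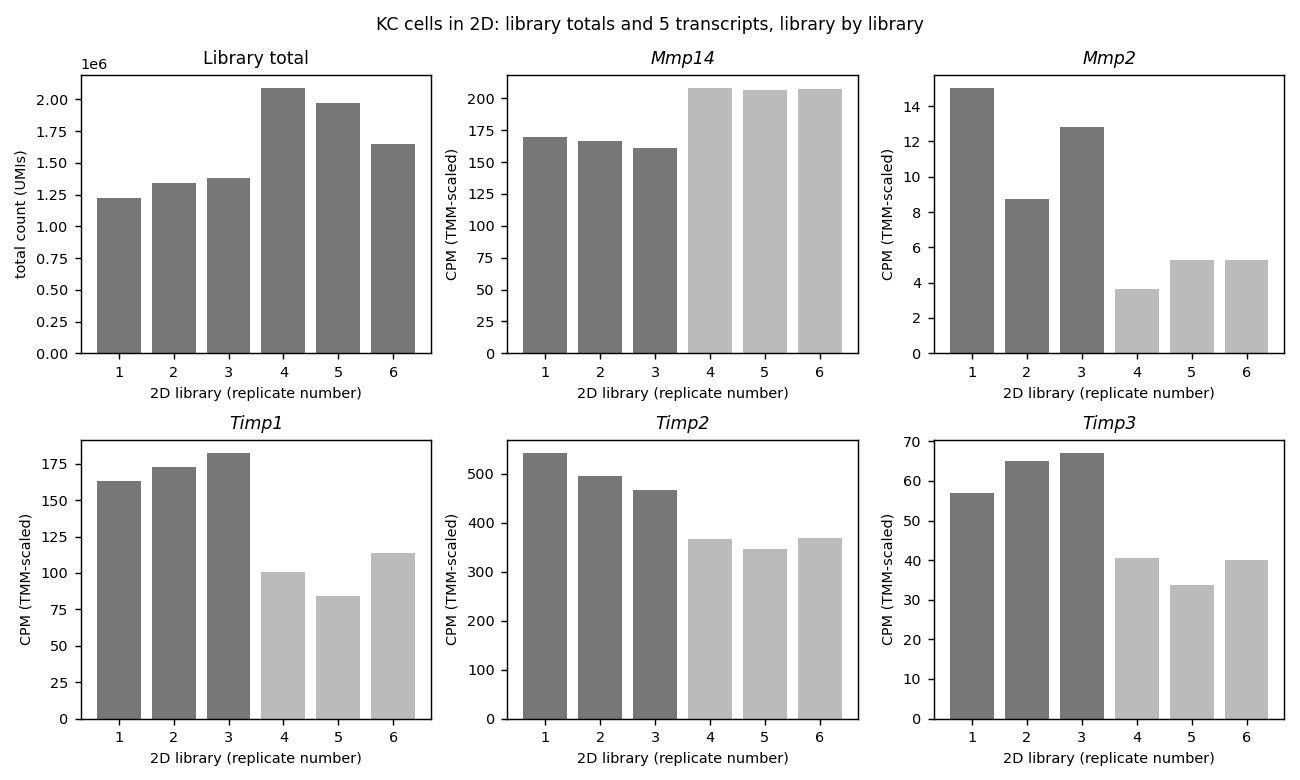
Total UMI count and TMM-scaled CPM of 5 transcripts (y axes, linear, from 0) in the 6 2D libraries (x axis, replicate number). Replicates 1 to 3 have lower totals, higher Timp1, Timp2, Timp3 and Mmp2 and lower Mmp14 than replicates 4 to 6.

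Against day 7 in collagen, Mmp15 and Timp3 were higher in 2D and Mmp14, Timp2 and Plat were lower, 5 of 9 beside a background of 51.2% (26.4% higher and 24.8% lower). Plat was below day 7 in every 2D library (log2 fold change -0.65 ± 0.13 SE, edgeR adjusted p = 0.000398), and so was Timp2 (-0.45 ± 0.12 SE, edgeR adjusted p = 0.00406). Mmp14 overlapped, with 161 to 208 CPM in 2D (-0.70 ± 0.16 SE, edgeR adjusted p = 0.00104). Mmp15 overlapped day 7 as well (0.71 ± 0.23 SE, edgeR adjusted p = 0.0144), and the call was lost without 2D replicates 4 to 6 (0.41, edgeR adjusted p = 0.270). Timp3 was called at 0.51 ± 0.20 SE (edgeR adjusted p = 0.0454) and lost the call without 2D replicates 1 to 3 (0.18) and without 2D replicate 2 (0.40), 2D replicate 3 (0.39) or day 7 replicate 3 (0.32). Timp1 was not called over all 6 libraries (-0.31 ± 0.20 SE, edgeR adjusted p = 0.217), but was called without 2D replicates 1 to 3 (-0.71, edgeR adjusted p = 0.000326) and without 2D replicate 3 (-0.43). Mmp2 was called without 2D replicate 4 (0.99), and Plaur without 2D replicate 3 (-0.23), 2D replicate 6 (-0.27) or 2D replicates 4 to 6 (-0.24).

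Matrigel organoids had higher Mmp15, Plat and Plaur and lower Timp1 and Timp2 than 2D cells, 5 of 9 beside a background of 42% (20.1% higher and 21.9% lower). Mmp15 was 2.84-fold higher in Matrigel without overlap (log2 fold change 1.51 ± 0.19 SE, edgeR adjusted p = 2.02e-06). Plaur had 288, 304 and 369 CPM as lowest, median and highest value in 2D, overlapping the lowest Matrigel library (0.39 ± 0.11 SE, edgeR adjusted p = 0.00729). Plat did not overlap (0.38 ± 0.14 SE, edgeR adjusted p = 0.0351), and the call was lost without Matrigel replicate 3 (0.25) or without 2D replicates 4 to 6 (0.24). Timp1 (-0.68 ± 0.21 SE, edgeR adjusted p = 0.0152) and Timp2 (-0.36 ± 0.12 SE, edgeR adjusted p = 0.0272) lost their calls without 2D replicates 1 to 3 (-0.22 and -0.08) and without Matrigel replicate 2 (-0.55 and -0.33). With scaling by library size alone the calls on Timp1 and Timp2 were also lost (-0.35 and -0.04). Timp3 was not called (-0.43 ± 0.20 SE, edgeR adjusted p = 0.103), but was called without any 1 of 2D replicates 4, 5 and 6 (-0.48, -0.53 and -0.48) and without all 3 (-0.81).

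The comparison of the KPC line with the KC line in collagen at day 13 found 1 of 9 called, beside a background of 19.9% (9.58% higher and 10.4% lower in KPC). Timp2 had 433, 434 and 426 CPM in KPC and 313, 342 and 351 CPM in KC organoids of the same batch. The groups did not overlap (log2 fold change 0.36 ± 0.14 SE, edgeR adjusted p = 0.0923), but the call was lost when any 1 of the 6 libraries was left out (adjusted p from 0.163 to 0.270). Mmp14 had 185, 142 and 166 CPM in KPC and 236, 202 and 200 CPM in KC, also without overlap, and was not called (-0.37 ± 0.19 SE, edgeR adjusted p = 0.215). In a fit of these 2 groups alone it was called lower in KPC (-0.38, edgeR adjusted p = 0.00951). Plat had 27.5 to 43.7 CPM in KPC and 25.3 to 32.1 CPM in KC, and was called only without KPC replicate 1 (0.52). The 95% interval of the log2 fold change of Mmp15 ran from -0.53 to 0.30 and that of Timp1 from -0.29 to 0.78.

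The same KC cells, matrix and day in both batches gave the size of a difference between batches. Of all tested genes 37.3% were called, 19.3% higher and 18.1% lower in the second batch, and 3 of the 9. Plau was higher (0.71 ± 0.32 SE, edgeR adjusted p = 0.0936) and Plat (-0.42 ± 0.17 SE, edgeR adjusted p = 0.0713) and Plaur (-0.32 ± 0.11 SE, edgeR adjusted p = 0.0357) were lower. Leaving out first-batch replicates 1, 2 or 5 or second-batch replicates 1 or 3 ended the call on Plat (-0.33 to -0.39), and any of these or first-batch replicate 3 ended that on Plau (0.43 to 0.78). The call on Plaur ended without first-batch replicate 5 (-0.24) or second-batch replicates 1 (-0.28) or 3 (-0.26). Mmp15 was called without first-batch replicate 4 (0.44) or 5 (0.48). Plat was low in both batches of collagen at day 13, with all 8 KC libraries and the 3 KPC libraries at or below 43.7 CPM and all Matrigel and day 7 libraries at or above 96.8 CPM.

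The genes most alike in pattern were found by the correlation of log2 CPM over the 23 libraries, which differ in batch, depth and culture form and within a group share line and culture, so that no p is given. For Plat these were Plin2 (Pearson r = 0.941), which coats lipid droplets, F2r (0.900), the thrombin receptor, and Elk3 (0.896). For Mmp15 they were Gfpt1 (0.958), Krt20 (0.957), a keratin of differentiated epithelium, and Ermp1 (0.954). Timp1 was most like Lgals1 (0.962) and Emp2 (0.961), and Timp3 was most like Gadd45a (0.935). Timp2 was nearest to Nhp2 (0.926), Srsf3 (0.924) and Tuba1a (0.922), and Mmp14 to Tns4 (0.822), Itga3 (0.802), an integrin subunit, and Kcnn4 (0.798). Mmp2, with 1 to 20 counts a library, was nearest to Ndfip1 (0.870), Loxl3 (0.862) and Thbs2 (0.8475). The highest values for Plaur and Plau, 0.760 and 0.671, were lower.

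Of 19 further Mmp genes 16 had a row and 2 passed the filter, Mmp11 and Mmp13, both named after their values were seen. Mmp11, known as stromelysin-3, had group means from 4.01 CPM at day 7 to 10.4 CPM in Matrigel and 12.2 CPM in 2D. Mmp9, a gelatinase, had at most 1 count in any library. Mmp13, a collagenase, had 3.27 CPM at day 7, 5.54 CPM in Matrigel and 0.578 CPM, from 0 to 2 counts a library, at day 13 in collagen, and it passed the filter through the groups in which it is higher. Of the regulators of metalloproteinases, Furin, which cleaves the proform of Mmp14, was higher at day 7 than at day 13 (93.1 against 55.6 CPM, log2 fold change 0.74 ± 0.15 SE, edgeR adjusted p = 0.000231). Bsg, a membrane glycoprotein known as an inducer of metalloproteinases, was lower at day 7 (869 against 1788 CPM, -1.04 ± 0.12 SE, edgeR adjusted p = 1.72e-07) and higher in Matrigel (2458 CPM, 0.46 ± 0.12 SE, edgeR adjusted p = 0.0128). Reck, an inhibitor of metalloproteinases at the membrane, had at most 2 counts in any library.

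In the plasminogen system 7 of 12 genes were tested, of which 3 were higher and 2 lower at day 7 than at day 13, beside 28.1% and 27.1% of all tested genes. Serpinb6a, an intracellular serpin, was the highest of the list at day 7 (1.04 ± 0.23 SE, edgeR adjusted p = 0.000569), and Lrp1, an endocytic receptor that clears complexes of activators and inhibitors, the lowest (-1.11 ± 0.24 SE, edgeR adjusted p = 0.000378).

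Among membrane serine proteases and their inhibitors 7 of 9 genes were tested, and 6 were lower and 1 higher at day 7 than at day 13, beside 27.1% and 28.1% of all tested genes. The median log2 fold change was -1.51, against 0.01 over all tested genes. At day 7 Tmprss4 held 0 to 3 counts a library, St14 1 to 2 and Spint1 2 to 9, near the floor. They passed the filter through groups in which they are higher, so that this count and median depend partly on the filter. Spint1, an inhibitor of matriptase, had 2.38 CPM at day 7 and 27.6 CPM at day 13 (-3.46 ± 0.31 SE, edgeR adjusted p = 1.22e-09). Spint2, a related inhibitor, had 515 and 1070.0 CPM (-1.05 ± 0.12 SE, edgeR adjusted p = 1.37e-07). In Matrigel 4 were higher and none lower than in collagen, beside 6.62% and 6.29% of all tested genes, with Tmprss4 at 33.4 against 12.5 CPM (1.41 ± 0.26 SE, edgeR adjusted p = 0.000506). Of the list, St14 held 1 to 9 counts and Prss22 1 to 7 counts a library in this collagen group. In KPC against KC organoids 2 of the list were higher and 2 lower, beside 9.58% and 10.4% of all tested genes. Spint1 was higher, at 91.0 against 36.5 CPM (1.32 ± 0.21 SE, edgeR adjusted p = 5.97e-05), and Tmprss2 lower, at 76.4 against 125 CPM (-0.71 ± 0.16 SE, edgeR adjusted p = 0.00258).

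Of the ADAM and ADAMTS proteases 7 of 13 were tested, with 1 higher and 3 lower at day 7 (55.1% of all tested genes called) and 2 lower in Matrigel (12.9% called). Adamts15 was the lowest in both, at 2.90 CPM at day 7, 10.6 CPM in Matrigel and 32.7 CPM in collagen at day 13 (-3.42 ± 0.30 SE and -1.62 ± 0.24 SE, edgeR adjusted p = 8.95e-10 and 3.85e-05). It held 2 to 10 counts a library at day 7, near the floor, and passed the filter through groups in which it is higher. Of the lysosomal cathepsins and their inhibitors 10 of 12 were tested, with 2 higher and 5 lower at day 7 and 3 higher and 2 lower in Matrigel, beside the same shares. Ctsl was higher at day 7 (629 against 286 CPM, 1.14 ± 0.15 SE, edgeR adjusted p = 4.88e-07) and Ctsh lower (138 against 343 CPM, -1.31 ± 0.17 SE, edgeR adjusted p = 3.68e-07).

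**Figure D4:**
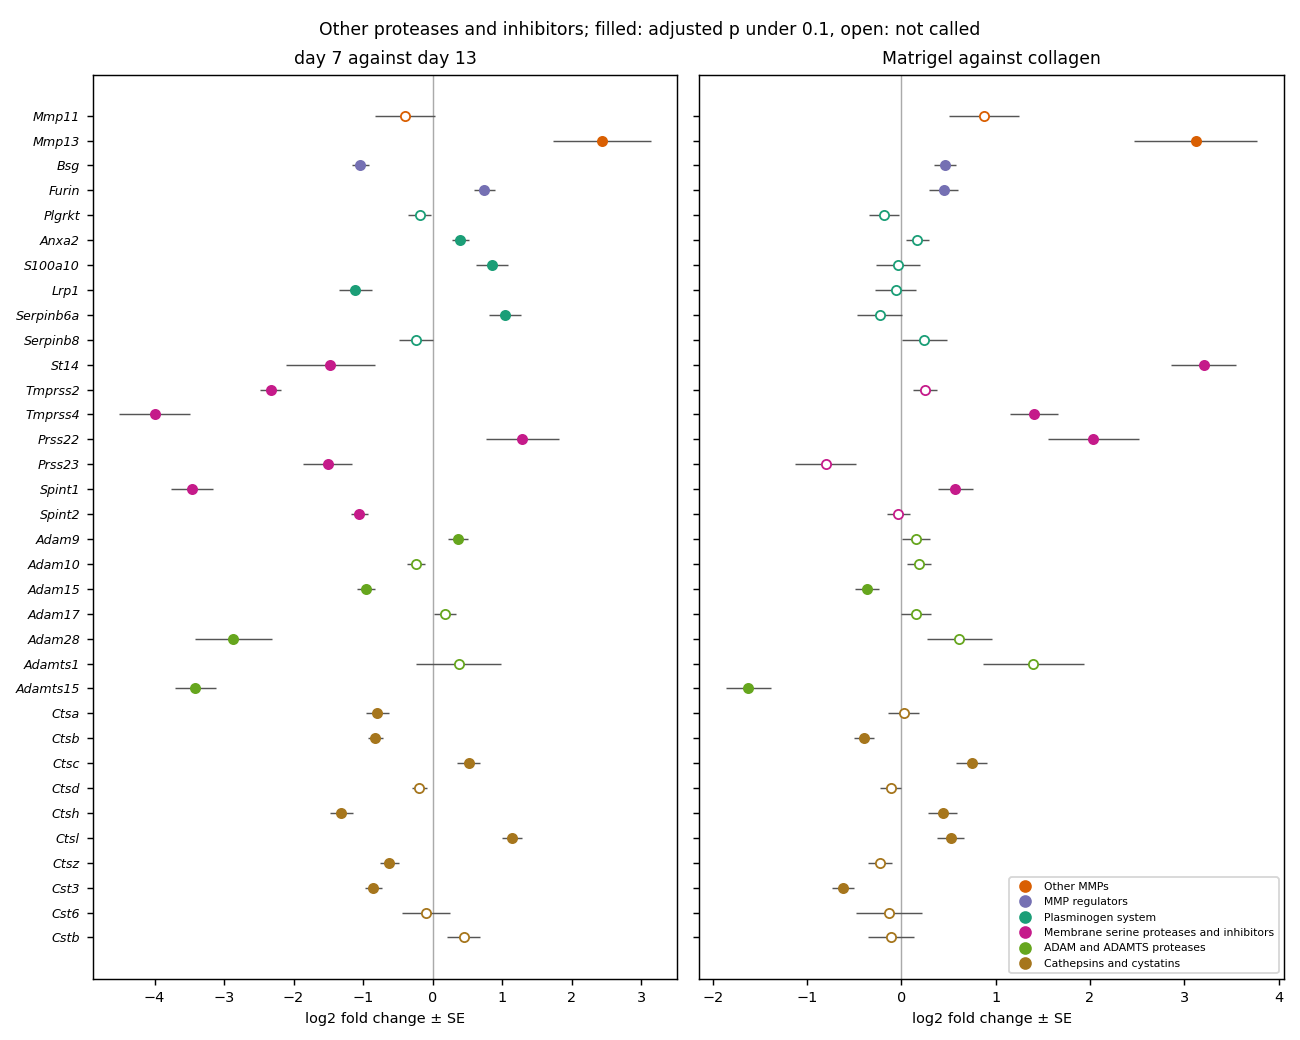
Log2 fold change with SE (x axis) of genes from 6 lists of other proteases and regulators (y axis, coloured by list), at day 7 against day 13 (left) and in Matrigel against collagen (right), filled where edgeR's adjusted p was under 0.1. Of the membrane serine proteases and inhibitors, 6 lie left of 0 at day 7 and 4 lie right of 0 in Matrigel among those called. Tmprss4, St14 and Spint1 held at most 9 counts a library at day 7.

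Genes known to respond to tissue digestion and stress also differed between the groups. Their 11 transcripts summed to 831 to 1297 CPM in 2D, 1546 to 2239 CPM at day 7, 2938 to 3570 CPM at day 13 in collagen, 1269 to 1339 CPM in Matrigel, 4178 to 4834 CPM in the second KC batch and 2483 to 2712 CPM in KPC organoids. Of the 11, 9 were lower at day 7, 9 in Matrigel and 11 in 2D than at day 13 in collagen, and 9 were lower in KPC than in KC. The shares of all tested genes called lower were 27.1%, 6.29%, 23.3% and 10.4%. Fosb, an immediate-early gene, was the lowest in Matrigel (10.2 against 75.0 CPM, -2.86 ± 0.35 SE, edgeR adjusted p = 2.76e-06). Their part in the differences of Plat, Mmp15 and the inhibitors was not tested.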

How the data were processed

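The authors made 3′-end libraries of polyadenylated RNA with unique molecular identifiers (UMIs), aligned reads to GRCm38 and obtained UMI tables by sample and gene from the Drop-seq pipeline, with genes defined by GENCODE. The deposited values are raw counts of 27207 genes in 23 libraries, without normalization. UMIs remove PCR copies, and the level of a gene was compared between groups only, not with that of other genes. Timp1 and Timp3 lie within Syn1 and Syn3 on the opposite strand, and Timp2 overlaps Cep295nl. Those 3 had 15, 96 and 21 counts over all libraries, against 4071, 1415 and 16965.

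Counts were tested with edgeR 4.0.16 (quasi-likelihood F-test) in R 4.3.3, with TMM scaling, in 1 fit of all 23 libraries with the 6 groups as levels, on the 11144 genes kept by filterByExpr. Benjamini-Hochberg adjusted p-values under 0.1, the false discovery rate of the study, were called. Intervals are at 95% and use the SE of the edgeR fit, which includes the spread between libraries. Floors are 3 counts and cover counting error only. Alternatives were DESeq2 1.42.0, its size factors, library size alone, other filters, a threshold of 0.05, 2 groups alone, 8 KC collagen libraries, a replicate block and each library left out. The 8 KC collagen libraries span both batches, so that every comparison with them mixes in the difference between batches. Leaving out 2D replicates 1 to 3 or 4 to 6 was added after the data were seen. The members and lists were chosen with earlier results of these data known. Named list genes were called, reached at least 20 CPM in 1 of the groups and had the highest or lowest log2 fold change of their list. The 3 genes most alike were ranked for each member. The pipeline was tested on simulated data in which a small part of the genes changed, up and down alike. That test does not cover scaling where many genes change, as at day 7 against day 13 with 55.1% called. Promoters came from RefSeq, positions from GENCODE on GRCm38, and libraries of the same group differed by more than sampling noise. Chi-square per degree of freedom was 1.27 to 2.90 within 2D replicates 1 to 3 and within 4 to 6. Between these 2 sets it was 21.6 to 33.7, and in other groups it reached at most 6.75. In first-batch collagen at day 13 it was 2.06 to 3.10 within replicates 1 to 3, 2.93 between 4 and 5, and 4.64 to 6.75 across them. The main fit treated all 6 2D libraries as replicates of 1 group. Some alleles and 1 list gene are not reported here.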

Additional observations from a re-analysis of the deposited data

Results flagged for a closer look

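Of 18 sets, 1 for each member and group of at least 4 libraries, 1 held a library far from the rest. Plaur had 368.6 CPM in 2D replicate 6, and the other 5 2D libraries had 288 to 316 CPM. The critical value used is one that chance passes in about 1 in 20 groups.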

How the results depend on the processing

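Comparisons of day 7 with day 13 and of 2D with either gave counts of called members within 1.5 times the reported count under every alternative run. For KPC against KC the count of 1 became 0 at a threshold of 0.05, with DESeq2's size factors, with DESeq2's Wald test and without a filter, and 2 with all 8 KC libraries, in a fit of 2 groups alone and with the replicate block. For Matrigel against collagen the count of 1 became 3 with 8 KC libraries, 2 with DESeq2, with 2 groups alone and with at least 10 counts in every library, and 5 with the replicate block. For Matrigel against 2D the count of 5 became 3 without 2D replicates 1 to 3 and with library size alone. For the second against the first batch the count of 3 became 1 at 0.05 and with DESeq2, and 0 without a filter. Leaving out each library in turn gave 5 to 6 (day 7 against day 13), 1 to 2 (Matrigel against collagen), 4 to 6 (2D against day 7), 5 to 6 (2D against day 13), 3 to 6 (Matrigel against 2D), 0 to 1 (KPC against KC) and 0 to 4 (batches). The replicate block draws only on replicate numbers that both groups hold. It thus set Matrigel against collagen replicates 1 to 3, and set day 7 and Matrigel against 2D replicates 1 to 3. Beyond these differences in the libraries compared, the cause of the changes in count was not tested. Replicate numbers did not pair the libraries (correlations of same-numbered libraries between -0.119 and 0.188 over the 7 comparisons, and in none over 0.1 for every pair). In the 2 comparisons whose count the replicate block moved by over 1.5 times, the members gained were Mmp14 (KPC against KC) and Mmp15, Timp1, Timp3 and Plaur (Matrigel against collagen).

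Some uncalled log2 fold changes changed sign. For Mmp14 in 2D against day 13 they became 0.11 without 2D replicates 1 to 3, 0.00894 with DESeq2's size factors and 0.00925 with DESeq2, with -0.0751 to 0.0654 on leaving out single libraries. In KPC against KC, Mmp15 became 0.0888, Plau 0.28 and Plaur -0.0429 with 8 KC libraries, while Mmp15 was 0.00725 with library size alone. Leaving out single libraries gave -0.22 to 0.0866 for Mmp15 and -0.39 to 0.11 for Plau. In Matrigel against collagen, Mmp15 became -0.0547 and Mmp2 0.0901 with 8 KC libraries (-0.0319 to 0.19 and -0.27 to 0.0307 without single libraries). Mmp2 became -0.34 in 2D against day 13 and 0.13 in Matrigel against 2D without 2D replicates 1 to 3, and ran from -0.77 to 0.0648 at day 7 against day 13. In 2D against day 7, Plau became -0.16 without 2D replicates 1 to 3 and -0.10 with library size alone (-0.11 to 0.13 without single libraries), and Timp1 0.0727 without replicates 4 to 6 and 0.0853 with the replicate block. In Matrigel against 2D, Plau became -0.21 without 2D replicates 4 to 6 and -0.26 with the replicate block. Timp2 became -0.0648 between batches with library size alone.

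Scaling by library size alone moved the median log2 fold change of all genes by -0.15 (2D against day 7), -0.20 (2D against day 13), 0.26 (Matrigel against 2D), 0.12 (KPC against KC) and -0.14 (batches). With it the genes called higher were 1997 of 5321 called (2947 of 5706 with TMM) in 2D against day 7, 1692 of 5305 (2934 of 5526) in 2D against day 13, 3481 of 4540 (2236 of 4680) in Matrigel against 2D, 654 of 954 (738 of 1439) in Matrigel against collagen, 1265 of 1863 (1068 of 2223) in KPC against KC and 1416 of 4018 (2149 of 4162) between batches. It also ended the call on Timp3 in 2D against day 7 (0.32), and gained calls on Timp1 (-0.53) and Plaur (-0.38) there and on Plaur in 2D against day 13 (-0.35). Depth limits Mmp2 and Plau, whose counts per library reached at most 20.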
